A study of Homo sapiens with 8 samples.

Results

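A set of 10 genes of plasma membrane amino acid transport was followed on 8 two-colour Agilent expression arrays: SLC7A1, SLC7A2, SLC7A5, SLC7A11, SLC3A2, SLC1A4, SLC1A5, SLC38A1, SLC38A2 and SLC6A9. They were chosen by gene name among the 43317 genes of the array, and all 10 were found, on 13 probes. SLC38A1, SLC38A2 and SLC6A9 had more than 1 probe, and such a gene is represented here by its brightest probe. Each array carried Cy3-labelled RNA of mock cells, which the labels give as untransfected, and Cy5-labelled RNA of treated cells, and the values are log2 ratios of Cy5 over Cy3.

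The 8 groups of 1 array each were PC3 cells given bisamide for 24 h (bisamide24H), PC3 cells given bisamide for 48 h (bisamide48H), PC3 cells with miR-125b-1-3p, C4-2 cells with miR-199-3p, 786-O cells with miR-532-5p or with miR-532-3p, and T24 cells with miR-140-5p or with miR-140-3p. PC3 and C4-2 are prostate cancer lines, 786-O is a renal cell carcinoma line and T24 a bladder cancer line. The compound bisamide binds pirin (PIR) and came from a screen for inhibitors of the heat shock factor 1 pathway, and is a small molecule, although the labels enter it as a transfection. With 1 array per group and no dye swap no treated group has a replicate, so treated over mock ratios are given as descriptions with no test, and how precise they are is set by how few arrays there were.

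Cells take up amino acids through several families of carriers. SLC7A11 (xCT) exchanges cystine for glutamate and feeds glutathione synthesis, and SLC7A5 (LAT1) exchanges large neutral amino acids such as leucine, and both work as heterodimers with the glycoprotein SLC3A2 (4F2hc, CD98). SLC7A1 and SLC7A2 carry arginine and lysine, SLC1A4 and SLC1A5 exchange small neutral amino acids and glutamine, SLC38A1 and SLC38A2 bring in glutamine and alanine with sodium, and SLC6A9 takes up glycine. Many of these genes are known targets of ATF4, the transcription factor of the integrated stress response, which raises amino acid uptake and synthesis when cells are short of amino acids or under stress of the endoplasmic reticulum.

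The transfected strands are shown first, since they define the miRNA groups. The mature sequences are those of RefSeq (GRCh38.p14), with the seed (bases 2 to 8) in capitals. The label miR-199-3p does not separate miR-199a-3p from miR-199b-3p, and these have the same sequence.
miR-199a-3p and miR-199b-3p: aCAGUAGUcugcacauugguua
miR-125b-1-3p: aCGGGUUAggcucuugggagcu
miR-532-5p: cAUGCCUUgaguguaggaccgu
miR-532-3p: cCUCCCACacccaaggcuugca
miR-140-5p: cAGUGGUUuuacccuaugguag
miR-140-3p: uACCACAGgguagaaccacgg
No seed is shared between strands of different name in this set.

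Promoters were read as well, because several of these genes are known targets of ATF4. ATF4 with its C/EBP partners binds a composite element with the core TGATGNAA. This core was searched on both strands, overlaps included, in windows from 250 bases before to 50 bases after each transcript start (RefSeq, GRCh38.p14). It was found in 1270 of 35116 promoters of all genes, 3.62%. Of the transporter genes, 8 had a promoter in the table, with 14 starts in all, and 5 of the 14 held the core, each in a different gene. SLC7A11 and SLC7A2 had none in the table. The stretches are printed below with the core in capitals, ASNS, the asparagine synthetase gene and a well-known ATF4 target, for comparison. The match of SLC3A2 lay 38 bases into the transcript and is not printed. That of SLC7A1 also lay inside the transcript, from base 8. In SLC38A1 and SLC1A4 the core began 4 and 7 bases before the start and ran across it. In SLC1A5 and ASNS it began 97 and 68 bases before the start.
SLC7A1 (chr13:29595669-29595721, minus strand): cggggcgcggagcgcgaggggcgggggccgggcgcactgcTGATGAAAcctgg
SLC38A1 (chr12:46266497-46266560, minus strand): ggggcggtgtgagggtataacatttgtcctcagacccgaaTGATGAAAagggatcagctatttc
SLC1A4 (chr2:64989352-64989418, plus strand, core on the other strand): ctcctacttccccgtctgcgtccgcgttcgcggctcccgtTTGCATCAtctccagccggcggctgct
SLC1A5 (chr19:46784864-46784951, minus strand): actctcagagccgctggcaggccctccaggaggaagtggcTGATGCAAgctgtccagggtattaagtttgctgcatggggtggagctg
ASNS (chr7:97872429-97872516, minus strand): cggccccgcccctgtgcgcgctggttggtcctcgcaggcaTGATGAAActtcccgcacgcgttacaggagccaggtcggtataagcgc
In SLC1A4, SLC1A5, SLC38A1 and SLC3A2 the core was near 1 of several starts. The windows of SLC7A5, SLC6A9 and SLC38A2 held no match, and a match is only a string of letters, not a binding site.

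The arrays were checked before the members were read. Between 15442 and 19240 genes of an array were well above background in both channels, the flag that the scanner software gives to a measured spot, and no spot was saturated. All 10 members were so measured on the 3 PC3 arrays, 9 on the C4-2 and 786-O arrays and 8 on the T24 arrays. SLC1A4 was not well above background in C4-2 and T24, and SLC7A2 was not in T24 and was measured in 786-O in the mock channel alone. Cell line markers in the mock channel were partly as the labels would have them. KLK3 had a raw signal of 13592 in C4-2 and was not well above background elsewhere, and CDH6 was measured in 786-O alone. CA9, listed for 786-O, and UPK2 and GATA3, listed for T24, were not well above background in those lines. KRT7, also listed for T24, was measured in every line and was higher in PC3 (log2 10.94 to 11.99) than in T24 (8.70 and 8.68). KRT8, listed for PC3, was lower there (7.78 to 7.99) than in C4-2 (9.46) or 786-O (8.89 in both mocks).

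Bisamide was the treatment with higher signals of most of the transporters. At 24 h, 9 of the 10 genes had a ratio above 0, and the median of the 10 was 0.75 beside 0.01 over the 19240 genes measured. At 48 h, 9 of the 10 were again above 0 and the median was 0.50 beside 0.01. A gene was counted as higher or lower past a log2 ratio of 1.0 in size. By this count SLC7A11, SLC7A5 and SLC6A9 were higher at 24 h and SLC7A5 was higher at 48 h, and no member was lower. Of all genes measured, 0.182% were higher and 0.0156% lower at 24 h, and 0.0946% were higher and 0.021% lower at 48 h. These arrays read bulk RNA of a culture, so a change in the share of cells that express a gene and a change in RNA per cell cannot be told apart.

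**Figure D1:**
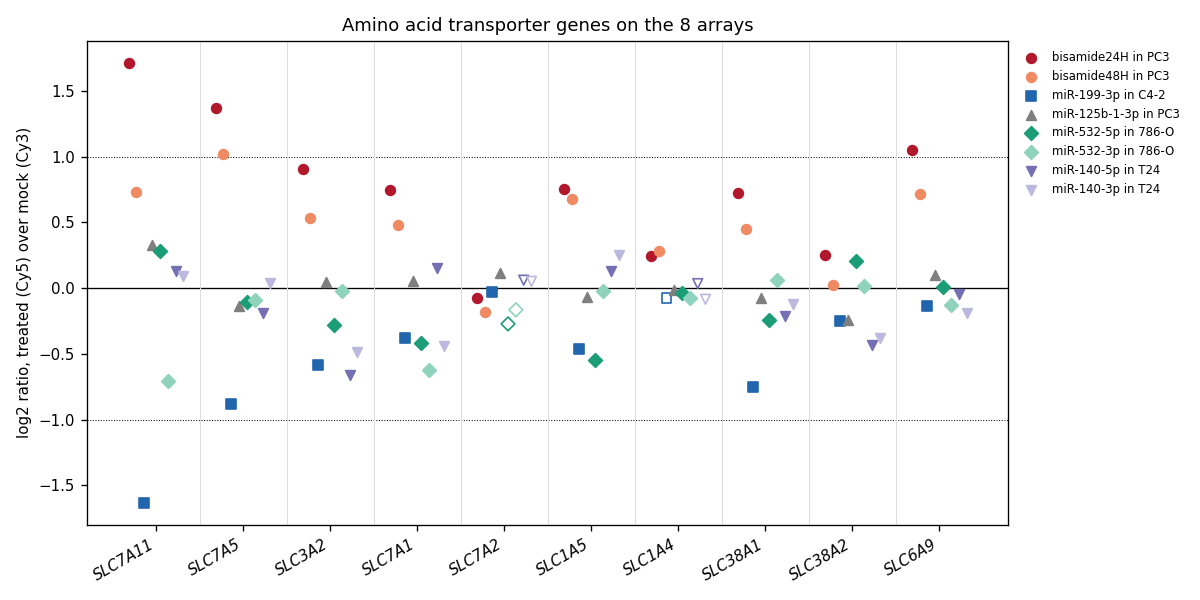
Log2 ratio of treated (Cy5) over mock (Cy3) signal of each transporter gene on each of the 8 arrays, 1 point per array. Filled points were well above background in both channels, open points were not, and dotted lines mark log2 ratios of 1 and −1. The bisamide points lie above 0 for 9 of 10 genes and the miR-199-3p points lie below 0 for all 10, where median centring put 4 of the 9 measured genes above 0.

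Among the heterodimeric exchangers, SLC7A11 had the largest ratio at 24 h. Its probe lies at chr4:139085433-139085492 (GRCh37, minus strand). The ratio was 1.71 at 24 h, 0.73 at 48 h, and 0.33 on the miR-125b-1-3p array in the same line. This placed SLC7A11 at rank 10 of 19240 genes at 24 h and at rank 42 of 19020 at 48 h. The raw mock signal was 518 on the 24 h array, 901 on the 48 h array and 715 on the miR-125b-1-3p array, while the raw treated signal was 3197, 2765 and 1535. The smaller ratio at 48 h stood beside a higher mock signal. After normalization the treated channels differed by 0.14 on the log2 scale (24 h minus 48 h), and the mock channels by −0.84. Set against the mean of the 3 PC3 mocks, SLC7A11 was at 1.31 at 24 h and 1.17 at 48 h.

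SLC7A5 lay past 1.0 at both times. Its probe lies at chr16:87863907-87863966 (GRCh37, minus strand). The ratio was 1.37 at 24 h, 1.02 at 48 h, and −0.14 on the miR-125b-1-3p array. It ranked 16 at 24 h and 18 at 48 h from the highest gene. The mock signals were 309, 240 and 243, and the treated signals were 1473, 874 and 348. Here the treated channels differed by 0.60 between the times and the mocks by 0.25. Against the mean of the PC3 mocks the values were 1.55 and 0.95, so the 48 h value was then just under 1.0.

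SLC3A2, the partner of both exchangers, stayed under 1.0 with its own mock. Its probe lies at chr11:62652689-62652748 (GRCh37, plus strand). The ratio was 0.91 at 24 h, 0.53 at 48 h, and 0.05 on the miR-125b-1-3p array. Against the mean of the PC3 mocks it was 1.01 and 0.52. The common subunit thus had a smaller ratio than SLC7A5 at both times and than SLC7A11 at both times. The offset of the background correction pulls the ratio of a dim probe toward 0. Without that offset the ratios at 24 h were 1.79 for SLC7A11, 1.46 for SLC7A5 and 0.98 for SLC3A2.

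Of the carriers of cationic amino acids, SLC7A1 had higher signal and SLC7A2 did not. SLC7A1 (chr13:30084093-30084152, GRCh37, minus strand) was at 0.74 at 24 h, 0.48 at 48 h, and 0.05 on the miR-125b-1-3p array. SLC7A2 was at −0.07, −0.18 and 0.11 on the same arrays, although it was measured in both channels of all of them. It was the single member below 0 with bisamide. With median centring in place of loess it was at 0.45 and 0.32, when the median of all measured genes stood at 0.45 and 0.44.

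The exchangers of small neutral amino acids also parted. SLC1A5 (chr19:47278899-47278958, GRCh37, minus strand), the glutamine exchanger ASCT2, was at 0.75 at 24 h and 0.68 at 48 h, and at −0.06 with miR-125b-1-3p. It was the member whose values at both times lay nearest among those above 0.5. SLC1A4 (chr2:65250035-65250094, GRCh37, plus strand), which carries alanine, serine and cysteine, was at 0.24 and 0.28 and at −0.02 with miR-125b-1-3p. Its raw mock signals in PC3 were 32.1 to 37.3, close to the median raw signal of an array (22.7 to 24.9 in Cy3), so its ratio is held near 0 by the offset. With an offset of 0 its ratios were 0.64 and 0.80.

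The sodium-coupled glutamine carriers differed from each other, and each was read by a pair of probes. SLC38A1 was at 0.72 at 24 h and 0.45 at 48 h by its brighter probe (chr12:46582007-46582066, GRCh37, minus strand), and at 0.71 and 0.52 by the other. SLC38A2 was at 0.25 and 0.02 by its brighter probe (chr12:46752710-46752769) and at 0.38 and 0.42 by the other. The probes of SLC38A1 thus differed by at most 0.08 with bisamide, and those of SLC38A2 by 0.40 at 48 h. Raw PC3 mock signals of these 4 probes were 1288 to 1940, far above the background.

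SLC6A9, the glycine transporter GLYT1, lay past 1.0 at 24 h by 1 of its probes. That probe (chr1:44462162-44462221, GRCh37, minus strand) gave 1.05 at 24 h, 0.71 at 48 h, and 0.10 on the miR-125b-1-3p array. Its raw mock signals were 131, 156 and 188 and its treated signals 498, 448 and 319. The mock of the 24 h array was thus the lowest of the 3, and against their mean the ratio was 0.83 at 24 h and 0.74 at 48 h. The other probe was not well above background in any mock, and its treated channel gave a bound of at least 1.07-fold higher at 24 h and at least 1.11-fold higher at 48 h. On the miR-125b-1-3p array it was also measured in Cy5 alone, with a bound of 0.98-fold. Such spots were common: 3428 genes were measured in Cy5 alone and 106 in Cy3 alone at 24 h, and 3627 and 96 at 48 h.

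**Figure D2:**
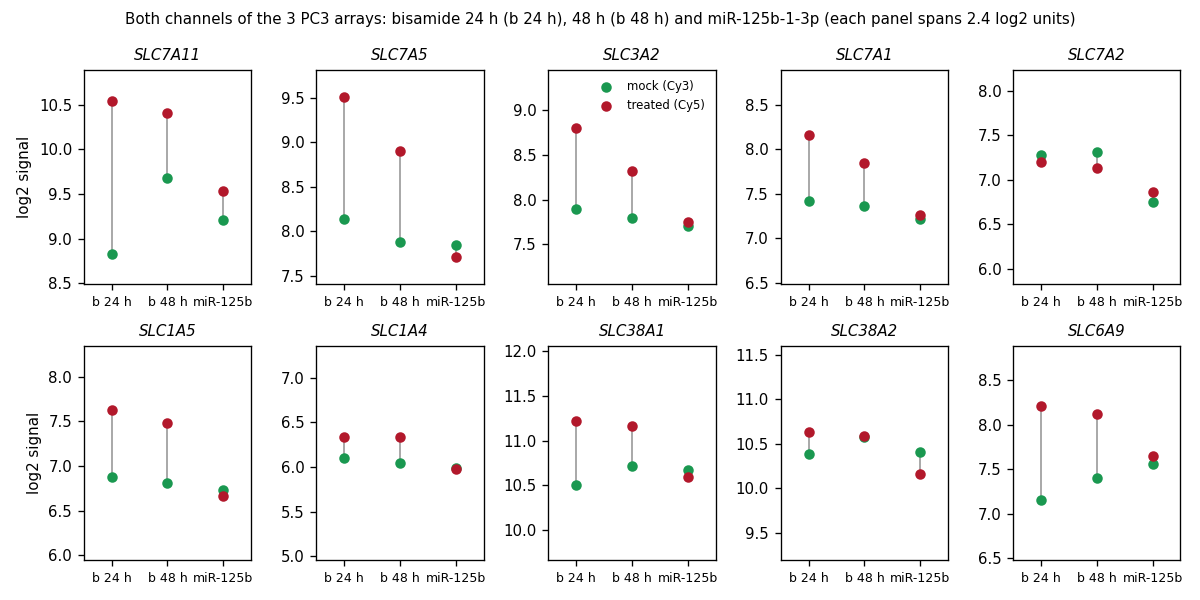
Log2 signal of the mock (Cy3, green) and treated (Cy5, red) channels of the 3 PC3 arrays for each transporter gene, after normalization within and between arrays. For SLC7A11 the mock was at 8.83 on the 24 h array and at 9.68 on the 48 h array while the treated channel was at 10.55 and 10.41, and for SLC7A5 the mocks were at 8.13 and 7.88 and the treated channels at 9.50 and 8.91.

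The choice of mock left the number of members past 1.0 at 3 for 24 h and 1 for 48 h, but not the genes. With each array's own mock these were SLC7A11, SLC7A5 and SLC6A9 at 24 h and SLC7A5 at 48 h. With the mean of the 3 PC3 mocks they were SLC7A11, SLC7A5 and SLC3A2 at 24 h and SLC7A11 at 48 h. All 10 members had a positive value at both times against that mean, with SLC7A2 at 0.09 and 0.02. The setting was chosen after the mock values had been seen.

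The bisamide values were also set beside those of the miRNA arrays, which were made the same way. For 7 of the 8 members measured in both channels of all 8 arrays, both bisamide ratios lay above the ratios of all 6 miRNA arrays, a pattern that 7.51% of 12579 genes had. SLC38A2 was the exception by its brighter probe, at 0.20 with miR-532-5p beside 0.02 at 48 h of bisamide. By its other probe it had the pattern too, at 0.38 and 0.42 with bisamide and at most 0.25 (miR-532-5p) on the miRNA arrays. The difference between the 24 h ratio and the median of the 6 miRNA arrays was largest for SLC7A11 (1.61), SLC7A5 (1.49), SLC3A2 (1.29), SLC7A1 (1.14) and SLC6A9 (1.13). At 48 h it was 1.14 for SLC7A5, 0.92 for SLC3A2, 0.88 for SLC7A1, 0.80 for SLC6A9 and 0.63 for SLC7A11. Of the miRNA arrays 5 came from other cell lines, so the treatment and the line differ together in most of this comparison.

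Transfection of miR-199-3p in C4-2 cells was the treatment with lower signals. All 9 members measured in both channels were below 0 after loess and 5 of 9 after median centring, with a loess median of −0.46 beside 0.01 over 15686 genes. SLC7A11 was the single member past −1.0 with an offset of 50, where 0.536% of genes were lower and 0.115% higher. Its ratio was −1.63, rank 9 of 15686 from the lowest, with a raw signal of 345 in the mock and 134 in the treated channel. SLC7A5 was at −0.88, SLC38A1 at −0.75 and −0.92 by its probes, and SLC3A2 at −0.58. SLC1A5 was at −0.46, SLC7A1 at −0.38, SLC38A2 at −0.25 and −0.14 by its probes, and SLC6A9 at −0.14. SLC7A2 at −0.03 was nearest to 0. With an offset of 0 SLC7A5 was at −1.36 and SLC38A1 at −1.01, so that 3 members passed −1.0, and without background correction SLC7A5 was at −1.16.

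The direction on this array depended in part on the scaling. Median centring in place of loess moved the median of all measured genes to 0.30, and 4 of the 9 members then lay above 0 and 5 below. Relative to that median all 9 were negative, from −0.01 to −1.47. SLC7A11 was at −1.17 and SLC7A5 at −0.50 with median centring, and SLC7A1, SLC7A2, SLC38A2 and SLC6A9 were at 0.06, 0.29, 0.19 and 0.29. With bisamide the same change of scaling moved the medians of all genes to 0.45 and 0.44, and 9 of the 10 members stayed above those medians at each time.

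On the other 5 arrays no measured member was past 1.0 in either direction with an offset of 50. With an offset of 0, SLC1A5 was at −1.03 with miR-532-5p, and SLC7A11 at −1.09 and SLC7A1 at −1.01 with miR-532-3p, and the scanner ratio gave −1.09, −1.12 and −1.05. With miR-125b-1-3p in PC3 the members lay between −0.25 and 0.33 with a median of 0.01, and of all genes 0.112% were higher and 0.0642% lower. This array shares the cell line with the bisamide arrays, and SLC7A11 at 0.33 was its highest member.

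The strands of miR-532 in 786-O differed most for SLC7A11 and SLC1A5. SLC7A11 was at 0.28 with miR-532-5p and at −0.71 with miR-532-3p. Its raw mock signals were 145 and 138 and its treated signals 159 and 87.5, so the mocks lay close and the treated channels apart. With median centring the ratios were 0.15 and −0.46. SLC1A5 was at −0.55 with miR-532-5p and −0.02 with miR-532-3p, the reverse order. SLC7A1 was below 0 with both, at −0.42 and −0.62, and SLC3A2 was at −0.28 and −0.02. SLC38A2 was at 0.20 and 0.01, and SLC7A5 at −0.10 and −0.09. The medians were −0.10 and −0.08. Of all genes, 0.357% were higher and 0.447% lower with miR-532-5p, and 0.0907% higher and 0.55% lower with miR-532-3p. SLC7A2, measured here in the mock alone, was at least 1.21-fold lower with miR-532-5p and at least 1.08-fold lower with miR-532-3p.

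On the T24 arrays of the miR-140 strands, SLC3A2 and SLC38A2 were below 0 after loess. SLC3A2 was at −0.66 after the 5p strand and −0.49 after the 3p strand, and SLC38A2 at −0.43 and −0.38, with −0.31 and −0.30 by its other probe. With median centring SLC3A2 was at −0.09 and 0.17 and SLC38A2 at 0.36 and 0.45, where the median of all measured genes was 0.35 and 0.45. SLC7A1 was at 0.15 and −0.44. Its raw signal was 233 in the mock and 409 in the treated channel of the first array, and 247 and 286 on the second. SLC1A5 was above 0 with both, at 0.13 and 0.25, and SLC7A11 at 0.13 and 0.09. The medians were −0.12 and −0.16. Of all genes, 0.119% were higher and 0.323% lower for 5p, and 0.0913% higher and 0.0856% lower for 3p.

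How alike the members were can be read over the 8 arrays. The 8 members measured throughout gave 28 pairs, with a Pearson correlation of 0.16 to 0.97 and a median of 0.77, given as a description over 8 arrays that share a slide and, in part, a mock. SLC38A1 and SLC7A5 had the highest value, 0.97. The lowest values were those of SLC38A2 with SLC1A5 (0.16), SLC7A1 (0.27) and SLC7A11 (0.46), so SLC38A2 by its brighter probe was the member least like the others. Its other probe, at 0.42 in place of 0.02 at 48 h of bisamide, did not enter these correlations.

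The list of 43 other amino acid transporters was read in the same way. On an array, 14 to 19 of them passed background in both dyes. Their median was 0.04 at 24 h and −0.00030 at 48 h of bisamide and 0.07 with miR-199-3p, and none passed 1.0 on these arrays. Their range was −0.44 to 0.40 at 24 h, which lies below the median of the 10 members on that array. A single value past 1.0 occurred on any array, that of SLC6A6, the taurine transporter, at −1.16 with miR-532-3p in 786-O.

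**Figure D3:**
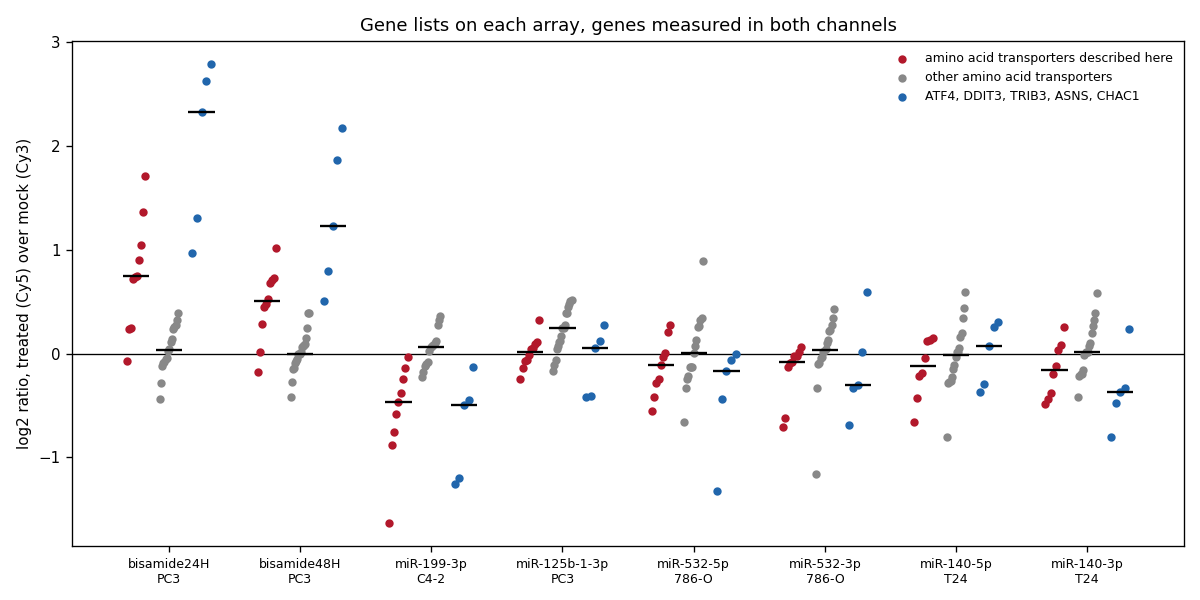
Log2 ratios of the 10 transporters (red), of the 43 other amino acid transporters (grey) and of ATF4, DDIT3, TRIB3, ASNS and CHAC1 (blue) on each array, genes measured in both channels only, with black bars at the medians. At 24 h of bisamide the medians were 0.75, 0.04 and 2.33, and with miR-199-3p they were −0.46, 0.07 and −0.49.

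Genes of the ATF4 pathway were given beside the transporters. ATF4 itself was at 1.31 at 24 h and 0.80 at 48 h of bisamide, and at −0.49 with miR-199-3p. DDIT3 (CHOP), its partner, was at 0.97, 0.51 and −0.45. The target genes had the largest values: ASNS was at 2.80, 1.86 and −1.25, TRIB3, a pseudokinase, at 2.33, 1.23 and −1.20, and CHAC1, a glutathione-degrading enzyme, at 2.63, 2.17 and −0.12. All 5 genes were thus above 0 with bisamide and below 0 with miR-199-3p, as were most of the transporters, with CHAC1 near 0 on the latter. On the miR-532-5p array ASNS was at −1.33, where SLC7A11 was at 0.28 and SLC7A5 at −0.10. At 24 h the transporters with a match to the promoter core were at 0.24 (SLC1A4), 0.72 (SLC38A1), 0.74 (SLC7A1), 0.75 (SLC1A5) and 0.91 (SLC3A2). Those without a match were at 0.25 (SLC38A2), 1.05 (SLC6A9) and 1.37 (SLC7A5). SLC7A11, at 1.71, and SLC7A2, at −0.07, had no promoter to search. The windows of ATF4, DDIT3 and TRIB3 held no match, while ASNS and CHAC1 each had 1. Whether the core bears on the ratios was not tested.

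The genes most like the transporters over the 8 arrays were sought among 10318 genes with a plain symbol that were measured throughout. The median profile of the 8 members was at 0.83 and 0.60 with bisamide and at −0.52 with miR-199-3p. The 5 genes with the highest Pearson correlation to it were SARS (0.986), PCK2 (0.982), IARS (0.981), ADM2 (0.974) and TRIB3 (0.972). SARS and IARS (SARS1 and IARS1 in RefSeq) are the cytosolic seryl- and isoleucyl-tRNA synthetases, PCK2 is the mitochondrial phosphoenolpyruvate carboxykinase and ADM2 is a secreted peptide of the adrenomedullin family. SARS was at 0.86, 0.66 and −0.61 on the 3 arrays, close to the level of the members, while TRIB3 had larger values in both directions and ADM2 was at −0.10 with miR-199-3p.

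**Figure D4:**
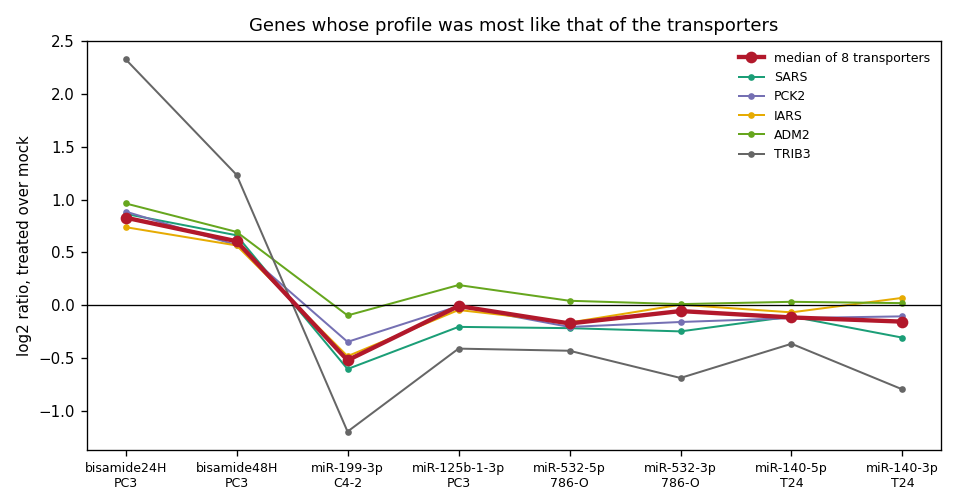
Log2 ratio over the 8 arrays of the median of 8 transporter genes (thick red line) and of the 5 genes with the highest Pearson correlation to it. Lines join the values of 1 gene and imply no order of the arrays. The values are highest at 24 h of bisamide (0.83 for the median, 2.33 for TRIB3) and lowest with miR-199-3p (−0.52 and −1.20).

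The mock channels show the level of each transporter in the untreated lines. PC3 had 3 mocks and C4-2 had 1. The 786-O pair and the T24 pair were each averaged to 1 sample, because their deposited names repeat 1 mock number. Over genes, the difference within these pairs had an SD of 0.087 and 0.064 on the log2 scale, beside 0.149 to 0.233 between PC3 mocks. Each other line was compared with PC3 with limma, with Benjamini-Hochberg adjustment over 22627 genes. The p-values measure only the spread between the 3 PC3 mocks, which may be technical, and a lone sample was assumed to vary like them. Cell lines differ widely: 45.6% of genes were called in C4-2, 33.8% in 786-O and 29.0% in T24 (adjusted p under 0.05). Of the 10 members 6, 6 and 5 were called.

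SLC38A1 and SLC38A2 had high signal in PC3 and T24 and low signal in C4-2 and 786-O. For SLC38A2 the log2 Cy3 signals of the PC3 mocks were 10.07, 10.25 and 10.08, that of C4-2 was 8.29, those of 786-O were 8.41 and 8.47, and those of T24 were 10.30 and 10.23. The lines formed a high and a low pair with no overlap. SLC38A2 differed from PC3 by −1.84 ± 0.09 (SE) in C4-2 (limma, adjusted p = 0.00139) and by −1.69 ± 0.09 in 786-O (adjusted p = 0.00273), and T24 differed from PC3 by 0.13 ± 0.09 (adjusted p = 0.376). These values are of its brighter probe. With the mean over its probes the T24 difference had the other sign, −0.11 (limma, adjusted p = 0.492). SLC38A1 differed from PC3 by −1.64 ± 0.10 in C4-2 (adjusted p = 0.00188) and by −1.10 ± 0.10 in 786-O (adjusted p = 0.00634). In T24 it differed by −0.42 ± 0.10 (adjusted p = 0.0527), and passed the threshold without the mock of the bisamide24H array (adjusted p = 0.0474). Its order was PC3, T24, 786-O and C4-2, with each step above the range of the PC3 mocks.

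SLC7A5 was highest in 786-O. Its signals were 9.59 and 9.60 there, 8.35 and 8.42 in T24, 8.09 in C4-2 and 7.94, 7.69 and 7.62 in PC3. The 786-O mocks lay above all others, 3.58-fold over PC3 after quantile normalization (log2 1.84 ± 0.15 SE, limma, adjusted p = 0.00514). Before it the raw signals were 441 on both 786-O arrays and 240 to 309 in PC3, so the size of the difference depends on the scaling. T24 and C4-2 lay within the PC3 range of each other. The difference to PC3 was 0.63 ± 0.15 in T24 (adjusted p = 0.0511) and 0.34 ± 0.15 in C4-2 (adjusted p = 0.148), and both passed the threshold without the mock of the bisamide24H array (adjusted p = 0.0333 and 0.0402).

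SLC3A2 had another order, with C4-2 highest at 9.09, T24 at 8.53 and 8.52, 786-O at 8.01 and 7.81, and PC3 at 7.72, 7.60 and 7.49. Each step was larger than the range of the PC3 mocks, but 786-O was not called against PC3 (0.31, limma, adjusted p = 0.101) and lay below it, at −0.23, with scaling to the 75th percentile. SLC3A2 was 2.81-fold higher in C4-2 (log2 1.49 ± 0.11, limma, adjusted p = 0.00244) and 1.90-fold higher in T24 (log2 0.93 ± 0.11, adjusted p = 0.0112). Before quantile normalization its raw signals were 313 in C4-2, 387 and 398 in T24 and 216 to 252 in PC3, so these sizes and the order of C4-2 and T24 depend on the scaling. The line with the highest SLC7A5 was therefore not the line with the highest SLC3A2.

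SLC7A11 varied most among the PC3 mocks themselves. They were at 8.56, 9.37 and 8.92, the widest range of the 10 members (0.81). C4-2 at 9.22 lay inside it, 786-O was at 8.10 and 8.05, and T24 was lowest at 7.26 and 7.35. The T24 level differed from that of PC3 by −1.65 ± 0.35 (limma, adjusted p = 0.0399). The call was lost without the mock of the bisamide48H array (adjusted p = 0.0536), without that of the miR-125b-1-3p array (adjusted p = 0.0621) and with no filter on dim genes (adjusted p = 0.0682).

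SLC7A1 and SLC1A5 were lowest in PC3 after quantile normalization. SLC7A1 was at 7.25, 7.17 and 7.02 in PC3 and between 7.83 and 8.33 in the other lines, with no overlap, and differed by 1.19 ± 0.11 in C4-2 (limma, adjusted p = 0.00404), 0.70 ± 0.11 in 786-O (adjusted p = 0.0186) and 0.74 ± 0.11 in T24 (adjusted p = 0.0182). SLC1A5 was at 6.75, 6.67 and 6.57 in PC3 and between 7.39 and 7.64 elsewhere. It differed by 0.73 ± 0.09 in C4-2 (limma, adjusted p = 0.00799), 0.91 ± 0.09 in 786-O (adjusted p = 0.00762) and 0.79 ± 0.09 in T24 (adjusted p = 0.0115). The other lines lay within the PC3 range of each other for SLC1A5, and for SLC7A1 T24 and 786-O did. Before quantile normalization the raw signals of SLC7A1 were 118 and 119 in 786-O, below the 135 to 163 of PC3. They were 172 in C4-2 and 233 and 247 in T24. Those of SLC1A5 were 85.2 in C4-2, 104 and 92.4 in 786-O, 169 and 160 in T24 and 81.6 to 97.1 in PC3. The place of PC3 as the lowest line thus depends on the scaling.

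SLC6A9 was highest in C4-2 and lowest in 786-O after quantile normalization. It was at 8.09 in C4-2, 7.02, 7.22 and 7.35 in PC3, 6.70 and 6.72 in T24 and 6.09 and 6.12 in 786-O, with no overlap between lines. The differences to PC3 were 0.89 ± 0.15 in C4-2 (limma, adjusted p = 0.0154) and −1.09 ± 0.15 in 786-O (adjusted p = 0.0139). Before quantile normalization the raw signal of SLC6A9 was 144 in C4-2, inside the 131 to 188 of PC3. It was 77.2 and 82.8 in T24 and 29.8 and 30.2 in 786-O. The place of C4-2 above PC3 thus depends on the scaling. SLC7A2 was at 7.08, 7.09 and 6.60 in PC3 and 7.21 in C4-2, and was not well above background in T24, where it was at least 2.10-fold lower than in PC3. That fold is a bound and was not tested. The fitted difference, which uses the dim T24 signal, was −1.23 ± 0.24 and was called (limma, adjusted p = 0.0340). This call was lost without the mock of the bisamide24H array (adjusted p = 0.0988), without that of the bisamide48H array (adjusted p = 0.0995) and with no filter on dim genes (adjusted p = 0.0572). SLC1A4 was not called in any line (adjusted p = 0.0797 to 0.130), with an offset that holds its dim signals together. With an offset of 0 it was called lower in C4-2 (−0.83, limma, adjusted p = 0.0295) and T24 (−0.97, adjusted p = 0.0281), where it was not well above background. It was called higher in 786-O (0.45, adjusted p = 0.0130) with scaling to the 75th percentile, which put it at 0.23 in C4-2.

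**Figure D5:**
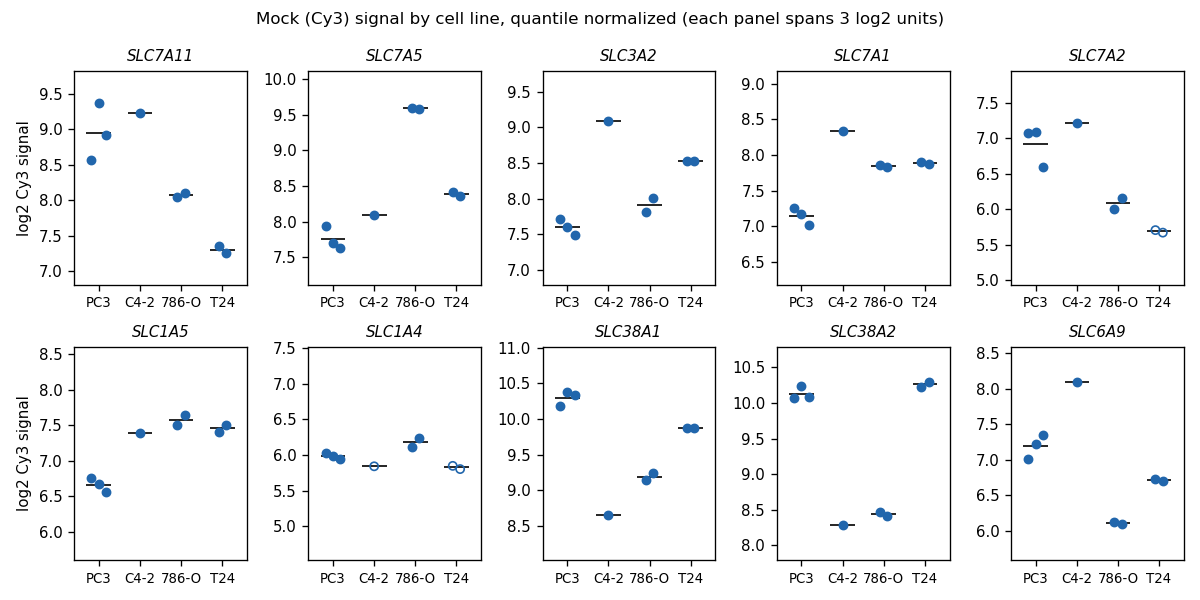
Log2 Cy3 signal of the mock channel of each array by cell line for each transporter, quantile normalized between arrays, with bars at the mean of a line. Open points were not well above background. SLC38A2 lies near 10 in PC3 and T24 and near 8.4 in C4-2 and 786-O, and SLC7A5 is highest in 786-O at 9.59 and 9.60.

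These calls rest on few mocks. Without the mock of the bisamide48H array none of the 5 members called in T24 passed (adjusted p = 0.0536 to 0.0995), while 4 of 6 in 786-O and 5 of 6 in C4-2 did, and the calls over all genes fell to 2935 in T24, 3883 in 786-O and 7077 in C4-2, from 6572, 7647 and 10317. The calls lost elsewhere were those of SLC6A9 in C4-2 (adjusted p = 0.0595) and of SLC6A9 and SLC7A1 in 786-O (adjusted p = 0.0622 and 0.0721). Without the mock of the bisamide24H array they were 3482, 4227 and 7170. Under scaling to the 75th percentile, which moved the median difference of all genes from PC3 to 0.19 in C4-2 and 0.14 in 786-O, no called member changed direction, but of those not called SLC7A5 was at −0.25, SLC7A11 at −0.46 and SLC7A2 at −0.03 in C4-2 and SLC38A2 at −0.10 in T24, each with its sign turned. SLC6A9 in C4-2 (adjusted p = 0.108) and SLC7A1 in 786-O (adjusted p = 0.161) were no longer called.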

How the data were processed

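Per the file headers, the scanner software was Agilent Feature Extraction 11.5.1.1. From the deposited files the raw intensities were used: mean spot signal and median local background per dye, linear and without normalization by the authors. The log10 ratios (Cy5/Cy3) that the scanner software computed were deposited too, and the series table repeats them. All arrays lay on 1 slide read in 1 scan, so no batch could be tested.

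Here the intensities were corrected with normexp (offset 50) and normalized within each array by loess (limma 3.58.1, R 4.3.3), with control spots at weight 0 and 126 to 181 outlier spots per array left out. The outcome is a log2 ratio computed from the deposited intensities. Repeated spots of a probe, with a median SD of 0.039 to 0.054, were averaged, and a gene was represented by its probe with the highest mean log2 intensity. A gene was counted past a log2 ratio of 1.0 when well above background in both channels. Where a probe was measured in 1 dye alone, the fold is a lower bound: the bright dye (after loess and Aquantile) against the dim one, taken no lower than the dimmest measured probe of that dye. Such bounds are open to dye bias.

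Mock signals were log2 Cy3 values after normexp (offset 50) and quantile normalization, tested with limma (lmFit, eBayes). Symbols follow the array's own annotation, and all 13 probes matched RefSeq by accession. The transporters, the other lists and the rule for named genes (all members, up to 3 highest and 3 lowest other transporters past 1.0 per array, 5 stress pathway genes, 5 genes of like profile) were chosen with earlier results of these data known. Alternatives were other background corrections, median centring, the scanner ratio, the series table, the mean over probes, subtraction of other arrays, other thresholds and filters, and, for the mocks, all 8 kept separate, scaling to the 75th percentile and leaving out each PC3 mock. The mean of the PC3 mocks was added after the data had been seen. The code was tested on simulated data. A marker from the cell line lists is not reported here.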

Additional observations from a re-analysis of the deposited data

How the results depend on the processing

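The number of members past 1.0 depended on the scaling and on the size required. Median centring gave 8 higher members at 24 h and 7 at 48 h of bisamide, and the ratio minus the median of the miRNA arrays gave 5 at 24 h. A threshold of 1.5 gave 1 at 24 h and 0 at 48 h. A threshold of 0.5 gave 7 and 5, where 1.05% and 0.915% of all genes were past it, and 8 lower values in place of 1 over the 6 miRNA arrays. There the lower values were 6 with an offset of 0, with plain background subtraction, with the scanner ratio and with the series table (SLC7A11, SLC7A5 and SLC38A1 with miR-199-3p, SLC7A11 and SLC7A1 with miR-532-3p and SLC1A5 with miR-532-5p), and 2 without background correction. The median of the members at 24 h was 0.91 with an offset of 0, 0.91 with plain subtraction, 0.86 without background correction, 1.45 with median centring, 0.88 with the scanner ratio or the series table and 1.01 minus the median of the miRNA arrays. At 48 h it was 0.66, 0.67, 1.16, 0.69 and 0.67 with an offset of 0, plain subtraction, median centring, the scanner ratio or series table, and the miRNA arrays subtracted. With miR-199-3p it was −0.72 with an offset of 0 or plain subtraction, −0.68 without background correction, −0.073 with median centring and −0.74 with the scanner ratio or the series table. Median centring also gave medians of 0.52 (miR-125b-1-3p), −0.23 (miR-532-5p), 0.21 (miR-532-3p), 0.46 (miR-140-5p) and 0.54 (miR-140-3p), changing the sign of the last 3 and moving the median of all measured genes on those arrays to 0.17, 0.35 and 0.45. With miR-125b-1-3p the ratio minus the median of arrays of other lines had a median of 0.14. The mean over probes gave 2 higher members at 24 h in place of 3, as SLC6A9 was no longer past 1.0, and the scanner ratio or series table gave 4. The limit for a moved count was a factor of 1.5, and for a median 0.115, the median SD of the members over the PC3 mocks. Within that limit the mean over probes, the other filters on dim genes and the mean of the PC3 mocks moved no count or median. Of the values of single members, none that had passed 1.0 changed sign under any of these settings.

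For the mocks, treating all 8 as separate gave 5 higher and 5 lower members in 786-O and 5 lower in T24, and no filter on dim genes gave 0 lower in T24. Leaving out 1 PC3 mock gave 0 to 4 higher and 0 to 2 lower members in T24, with both 0 values without the bisamide48H mock, 2 to 3 higher and 2 to 4 lower in 786-O, and 3 to 5 higher and 2 lower in C4-2. Elsewhere the cause of a change was not tested. No paired analysis was possible because every group has a single array.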
